A study of Homo sapiens with 4 samples.

Results

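The cytosolic ribosomal protein genes encode the proteins of the ribosome that translates nuclear messages, and they were followed here across 4 cultures of Nalm-6, a cell line from a human pre-B leukemia. Members were all probes whose RefSeq accession matched a current protein-coding symbol of the form RPL or RPS with a number, or RPSA, RPLP0, RPLP1 or RPLP2, leaving out pseudogenes and the RPS6K kinases. This rule gave 198 of the 41000 probes and 87 of the 18203 genes with a symbol, and every gene that met the rule in the reference table had a probe. Of the 87 genes, 31 encode proteins of the small, 40S subunit and 46 encode proteins of the large, 60S subunit. The other 10 are paralogs, that is additional copies of a ribosomal protein gene, such as RPS27L or RPL22L1.

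The cultures were wild type (WT), Arp5 KO, Arp8 KO and Arp8 overexpression (Arp8 OE), each with 1 array, so no test between conditions was possible and no p-value is given. Arp5 and Arp8 are actin-related proteins of the INO80 chromatin remodeling complex, which moves nucleosomes at the cost of ATP. Per the study, Arp5 KO was a single line with both alleles of ARP5 disrupted by gene targeting, and Arp8 KO was a line from earlier work. The study also states that a conditional Arp8 knockout was lethal to cells in its earlier work, while Arp5 KO cells grew slightly more slowly than WT. Heme was given at 20 uM for 12 hours to induce oxidative stress according to the treatment protocol, but the labels conflict: the titles name heme for all 4 cultures, the treatment characteristic reads no heme for both knockouts, and the source name reads without heme for Arp5 KO and with heme for Arp8 KO. Genotype and treatment of the knockouts therefore cannot be told apart in these data.

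Ribosomal protein transcripts are among the most abundant messages of a dividing cell, and the proteins are needed in equal amounts, since each ribosome holds a single copy of nearly all of them. In human cells most of these messages start at a C that is followed by a run of pyrimidines, known as the 5′ terminal oligopyrimidine tract, through which the mTOR pathway and LARP1 control their translation. Some ribosomal proteins have further roles, for example RPL5 and RPL11, which bind MDM2 when ribosome assembly is disturbed.

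The start sites of the members to which the results return are shown first, because most members share this start and several paralogs lack it. Each line gives 15 bases before and 15 bases from the first transcribed base of 1 RefSeq transcript on assembly GRCh38.p14, read 5′ to 3′ on the gene's strand. Capitals mark the run of C and T that begins on a C at the first transcribed base. Of genes with several transcript starts (RPS19, RPL10 and RPL26L1), the start with the longest such run, if any, is shown.
RPLP0 (chr12:120201097-120201126, minus strand): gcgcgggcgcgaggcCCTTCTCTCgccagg
RPS19 (chr19:41860240-41860269, plus strand): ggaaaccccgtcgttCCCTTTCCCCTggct
RPS25 (chr11:119018329-119018358, minus strand): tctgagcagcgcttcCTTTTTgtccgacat
RPL7A (chr9:133348203-133348232, plus strand): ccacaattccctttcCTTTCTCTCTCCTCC
RPL35 (chr9:124861943-124861972, minus strand): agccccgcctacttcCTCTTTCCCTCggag
RPL22 (chr1:6199581-6199610, minus strand): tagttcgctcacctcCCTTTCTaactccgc
RPL22L1 (chr3:170870181-170870210, minus strand): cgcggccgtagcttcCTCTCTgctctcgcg
RPS27 (chr1:153990747-153990776, plus strand): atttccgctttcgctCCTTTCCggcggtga
RPS27L (chr15:63157463-63157492, minus strand): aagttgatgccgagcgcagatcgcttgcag
RPL26 (chr17:8383179-8383208, minus strand): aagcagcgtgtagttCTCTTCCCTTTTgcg
RPL26L1 (chr5:172958714-172958743, plus strand): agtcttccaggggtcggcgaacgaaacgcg
RPL7L1 (chr6:42879601-42879630, plus strand): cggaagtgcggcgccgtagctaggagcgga
RPL10 (chrX:154398362-154398391, plus strand): caggcggaggagcgcCTCTTTCCCTTCggt
RPL10L (chr14:46651767-46651796, minus strand): caggcgtagttaagagagcgcattttgact
RPL36A (chrX:101390996-101391025, plus strand): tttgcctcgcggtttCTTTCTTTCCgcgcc
RPL36AL (chr14:49620612-49620641, minus strand): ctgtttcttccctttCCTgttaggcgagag

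RPLP0, RPS19, RPS25, RPL7A, RPL35, RPL22, RPS27, RPL26, RPL10 and RPL36A are canonical members, and at the starts shown all 10 begin on a C within such a run. Among the 6 paralogs shown, RPL22L1 has the run, RPL36AL has a run of 3 bases, and RPS27L, RPL26L1, RPL7L1 and RPL10L begin on another base. The table of start windows held an entry for 70 of the 87 genes, in 86 windows of 300 bases from 250 before to 50 after the start. A run of at least 5 pyrimidines beginning on a C at the first base was found in 48 of these 70 genes (68.6%), against 5.14% of the 27305 genes in the table. It was found in 46 of 62 canonical genes and in 2 of 8 paralogs, a gene being counted where any of its windows held it. The canonical genes without the run, RPL3 and RPS4X among them, are not among the sequences shown. Counted by windows, the run lay in 48 of 86 member windows (55.8%), against 4.07% of all windows. These were as many windows as genes, so the other windows of RPS19 and RPL10 lack it. The letters CTTTCC, which can overlap that run, lay between 10 bases before and 20 after the start in 23.3% of member windows and in 1.51% of all 35116 windows. CCGGAAG on either strand of the window was found in 32.6% of member windows and 10.3% of all windows, and TATAAA on either strand in 8.14% and 11.5%. These matches describe letters only.

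The members were bright and nearly all measurable. Of the 198 probes, 196 were well above background on all 4 arrays, 1 RPS26 probe (A_23_P139471) only on the Arp8 KO array, and 1 RPL10 probe (A_24_P6305) on none. A probe was compared with WT where either array had it well above background, which left 197 probes in Arp8 KO and 196 in each of the other cultures. Values below are log2 of the background-subtracted signal over the 75th percentile of the same array (the scaled level), and differences are a culture minus WT on that scale. RPS6, for example, stood at 8.55 in WT, and RPL3L, the muscle paralog of RPL3, at -3.50. The slide was scanned at a high and a low sensitivity, and bright spots were taken from the latter. By this route between 82.1% and 83.1% of member spots came from the low-sensitivity scan, against 2.72% to 3.02% of all spots. No spot was saturated. The Y-linked paralogs RPS4Y1 and RPS4Y2 were counted among the members and are given no values.

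All arrays lay on 1 slide with 1 scan time, and between 55.8% and 57.4% of probes were well above background. The 75th percentile was lower on both Arp8 arrays (655.7 for Arp8 KO, 647.4 for Arp8 OE) than in WT (735.1) or Arp5 KO (739.6). Spots of a probe printed 10 times gave a technical SD of 0.11 for a log2 difference between arrays over all levels, and 0.07 at the level of the members, which covers spots and not cultures. ACTR5, which encodes Arp5, differed from WT by -4.27 in Arp5 KO. The 2 probes of ACTR8, which encodes Arp8, differed by -0.53 and -0.68 in Arp8 KO, but by 0.02 and -0.01 on the array labelled Arp8 OE, so that name is used as a label only. All 10 pre-B markers, PAX5 among them, were well above background on every array. Of 8 markers of other cells, 2 to 4 were, with CD14 and KRT8 on every array, and CD3E and LYZ in Arp8 KO.

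The family stood slightly above WT in both Arp8 cultures and at the WT level in Arp5 KO. The median difference over member probes was 0.24 for Arp8 KO, 0.23 for Arp8 OE and 0.02 for Arp5 KO. Over all probes compared the medians were 0.03, 0.00 and 0.00 in that order. In Arp8 KO 164 of 197 member probes (83.2%) lay above WT, against 52.7 percent of all probes. On the array labelled Arp8 OE 179 of 196 (91.3%) did, against 50 percent, and in Arp5 KO 108 of 196 (55.1%) did, against 50.7 percent. All 3 comparisons share the WT array, so a high or low WT value enters each of them. In bulk RNA less RNA per cell and fewer cells of a type cannot be told apart.

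**Figure D1:**
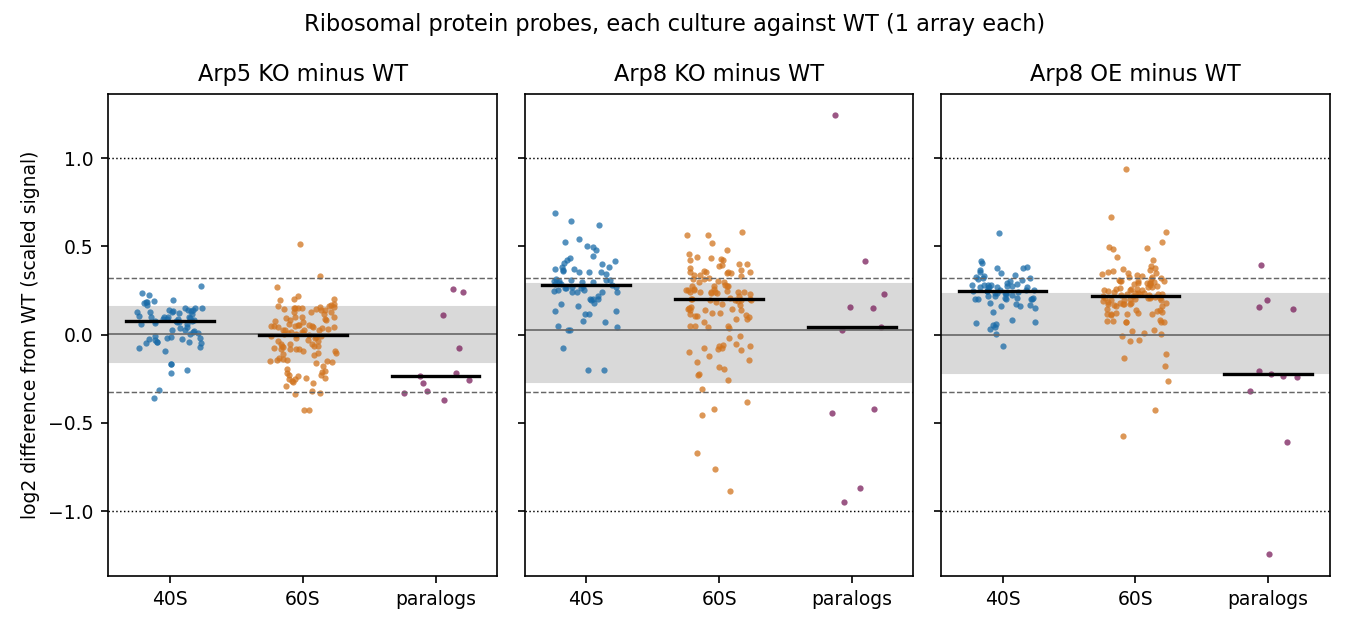
Log2 difference from WT of each ribosomal protein probe (points, vertical axis), by subunit and for paralogs (horizontal axis), in the 3 cultures with 1 array each. Black lines are medians of the plotted probes, grey bands span the middle 50% of all probes, and dashed and dotted lines mark 0.32 and 2-fold. Y-linked paralogs are not plotted. Most 40S and 60S points lie above 0 in Arp8 KO and Arp8 OE, and spread around 0 in Arp5 KO.

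Single members differed little. In Arp8 KO 53 of 197 member probes (26.9%) were over 0.32 higher than WT on the log2 scale, the lower of 2 thresholds used, against 22.3 percent of all probes, and 10 (5.08%) were over 0.32 lower, against 22.1 percent. In Arp8 OE 35 (17.9%) were higher, against 18.1 percent, and 4 (2.04%) were lower, against 16.6 percent. In Arp5 KO 2 were higher, against 10.9 percent, and 7 were lower, against 11.7 percent. On both Arp8 arrays the members thus differed from all probes less by large increases than by the scarcity of decreases. In Arp5 KO differences past 0.32 were scarce among members in both directions. These comparisons with all probes were not matched for signal level. In Arp5 KO the 769 non-member probes from the low-sensitivity scan on all 4 arrays had lower and upper quartiles of -0.07 and 0.11. The 158 members of that scan had -0.06 and 0.10, and all probes compared had -0.16 and 0.16. The narrow spread in Arp5 KO was thus shared by other bright probes. In Arp8 KO the lower quartile was -0.08 over those non-members, 0.12 over the members of that scan and -0.27 over all probes compared. In Arp8 OE the lower quartiles were -0.05, 0.17 and -0.22 in the same order. Part of the scarcity of decreases on the Arp8 arrays was thus also shared by other bright probes. Past 2-fold there was 1 probe higher in Arp8 KO (RPS27L; 3.37 percent of all probes) and 1 lower in Arp8 OE (RPL22L1; 2.15 percent). None passed 2-fold lower in Arp8 KO (4.35 percent), higher in Arp8 OE (2.96 percent), or in either direction in Arp5 KO (1.69 percent higher and 2.01 percent lower).

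These counts depend on how arrays are brought to 1 scale, and the distance between members and all probes does not depend on a single factor per array. Before scaling, the median signal of member spots was nearly equal on the 4 arrays, from 80626 in WT to 83153 on the Arp8 OE array, with 82096 and 81996 in Arp5 KO and Arp8 KO. Without scaling the median of all probes was -0.14 for Arp8 KO and -0.18 for Arp8 OE, while the member medians were 0.08 and 0.04. Members past 0.32 then numbered 12 higher and 18 lower for Arp8 KO, and 5 and 11 for Arp8 OE. The shares of all probes past 0.32 without scaling are not given. Above WT then lay 63.5% of member probes in Arp8 KO, against 35.4 percent of all probes. In Arp8 OE 64.8% did, against 29.5 percent. The distance from the median of all probes was 0.21 for Arp8 KO, 0.23 for Arp8 OE and 0.02 for Arp5 KO under every scaling by 1 factor per array. Quantile normalization brought it to 0.10 and 0.09 in the Arp8 cultures, and cyclic loess, which removes differences that follow signal level, to 0.17 and 0.14. The member medians of both Arp8 arrays were above 0 under all of these settings. Over 7 scalings (the 75th percentile, the same over other probes, the median, quantile, cyclic loess, the low-sensitivity scan and none), 55 of the 85 members that are not Y-linked had a mean above WT throughout in Arp8 KO and 12 below. In Arp8 OE 59 were above and 6 below throughout, and in Arp5 KO 45 and 29.

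**Figure D2:**
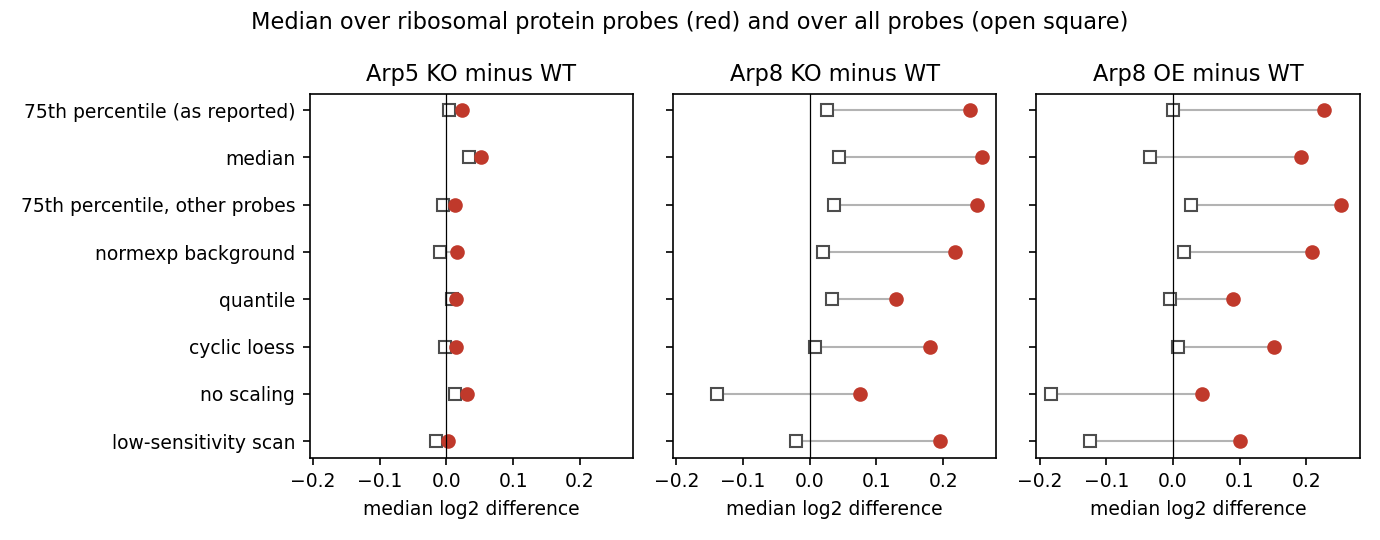
Median log2 difference from WT (horizontal axis) over ribosomal protein probes (red circles) and over all probes compared (open squares), under 8 ways of scaling or background correction (rows), in the 3 cultures. The red circle lies to the right of the square in every row for Arp8 KO and Arp8 OE, and near it for Arp5 KO.

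Signal level moved with part of this distance. Among probes taken from the low-sensitivity scan on all 4 arrays, the 769 that were not members had medians of 0.07 for Arp8 KO and 0.14 for Arp8 OE, and the 158 members had 0.24 and 0.23. Members thus lay 0.17 above other probes of that scan in Arp8 KO and 0.09 above them in Arp8 OE, with levels not matched further. In Arp5 KO the medians were 0.03 for both sets. The 39 member probes compared in Arp8 KO that came from the high-sensitivity scan on some array had a median of 0.17, and the 38 compared in Arp8 OE had 0.15. The part of the scan in these differences was not tested further.

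**Figure D3:**
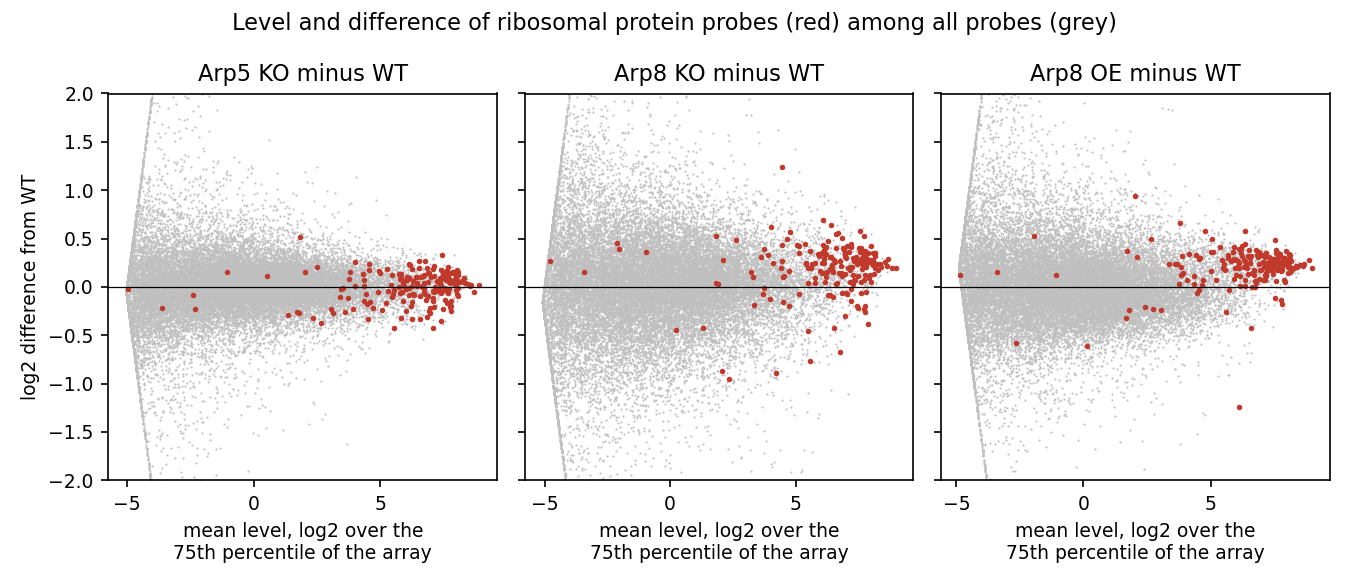
Log2 difference from WT (vertical axis) against the mean scaled level of WT and the culture (horizontal axis, log2 over the 75th percentile of the array) for all probes (grey) and ribosomal protein probes (red), in the 3 cultures. Red points gather at the bright end of the cloud, mostly above 0 in Arp8 KO and Arp8 OE.

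Without choosing WT as the reference, the same split between arrays was seen. The Arp8 KO array gave the highest of the 4 levels for 107 of 197 member probes (54.3%, against 32.7 percent of all probes) and the array labelled Arp8 OE for 81 (41.1%, against 26.1 percent). WT was highest for 8 (against 24.5 percent) and Arp5 KO for 1 (against 16.7 percent). The lowest level was in WT for 104 (52.8%, against 24.1 percent), in Arp5 KO for 73 (37.1%, against 19.2 percent), in Arp8 KO for 13 (against 32.1 percent) and in Arp8 OE for 7 (against 24.6 percent). For 152 probes (77.2%) both Arp8 arrays lay above both WT and Arp5 KO, a pattern held by 22.9 percent of all probes. Without scaling 49 member probes held it, and with quantile normalization 88. The share of all probes under these other settings is not given, so no excess can be read from these counts. The 2 Arp8 arrays differed little from each other over the family, with a median of 0.02 for Arp8 KO minus Arp8 OE.

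The small subunit showed the most even shift. Its 70 probes had a median of 0.28 in Arp8 KO, where 67 lay above WT, 24 were past 0.32 higher and 0 lower. In Arp8 OE the median was 0.25 and 68 of 69 probes lay above WT, and in Arp5 KO it was 0.07. For the large subunit the medians were 0.20, 0.22 and 0.00 in the same order, with 88 of 114 probes above WT in Arp8 KO and 105 of 114 in Arp8 OE. Gene means past 0.32 higher in Arp8 KO numbered 12 of 31 in the small subunit and 10 of 46 in the large one. The 13 paralog probes had lower medians, of 0.05 in Arp8 KO, -0.21 in Arp8 OE and -0.22 in Arp5 KO. Counted as 10 genes, the paralogs had medians of 0.08, 0.06 and -0.15 in the same order, so the sign in Arp8 OE turned, with 7, 6 and 3 genes above WT. RPL26L1 holds 3 of the paralog probes and RPL7L1 2. The median over paralog probes in Arp8 KO fell below 0 without scaling (-0.12) and when scaled over the low-sensitivity scan. The signs of the other subunit and paralog medians over probes were kept under all 7 scalings in both Arp8 cultures.

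RPLP0, also known as 36B4 and used by the study as its PCR reference gene, encodes the scaffold of the ribosomal stalk. Its 3 probes stood at 7.49, 7.99 and 8.19 in WT, and at 7.59, 8.14 and 8.24 in Arp5 KO. On the Arp8 KO array they stood at 7.79, 8.31 and 8.36, and on the Arp8 OE array at 7.75, 8.28 and 8.39. All 3 were lowest in WT and higher on both Arp8 arrays. One of them (A_23_P204472) was printed at 10 spots, and over the 9 spots usable on every array it differed from WT by 0.29 ± 0.03 (SD) in Arp8 KO, 0.25 ± 0.01 in Arp8 OE and 0.09 ± 0.09 in Arp5 KO. The SD is that between spots of the same arrays. On both Arp8 arrays the reference gene thus moved with its family and not with the median of all probes. In Arp5 KO its gene mean was 0.10, above the medians of the family (0.02) and of all probes (0.00). The size of its difference depended on the scaling. Over the 7 scalings its gene mean ran from 0.10 to 0.28 in Arp8 KO and from 0.04 to 0.28 in Arp8 OE. RPLP1 and RPLP2, the acidic proteins bound to that stalk, gave the same picture on the Arp8 arrays. RPLP1 differed by 0.28 and 0.25 in Arp8 KO and 0.26 with both probes in Arp8 OE, and RPLP2 by 0.23 and 0.20. In Arp5 KO the RPLP1 probes differed by 0.03 and 0.05 and RPLP2 by 0.03.

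Among proteins of the small subunit, RPS19, which is mutated in Diamond-Blackfan anemia, had the highest mean difference of the canonical genes in Arp8 KO. Its 2 probes stood at 5.73 and 7.46 in WT and at 5.87 and 7.61 in Arp5 KO, against 6.42 and 7.98 in Arp8 KO and 6.15 and 7.76 in Arp8 OE. The order WT, Arp5 KO, Arp8 OE, Arp8 KO was the same with both probes, and the differences in Arp8 KO were 1.61-fold and 1.44-fold. RPS12 followed with 0.54 and 0.38 in Arp8 KO and Arp8 OE, and RPS23, which lies at the decoding center, with 0.50 and 0.38. Each of them had 1 probe. RPS23 was also the highest member in Arp5 KO, at 0.27. RPS25, which some viral internal ribosome entry sites require, had 3 probes that differed by 0.35, 0.64 and 0.38 in Arp8 KO and by 0.34, 0.58 and 0.38 in Arp8 OE.

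Other small subunit members lay near the family median. RPS6, the target of the S6 kinases, stood at 8.84 and 8.79 on the Arp8 KO and Arp8 OE arrays, against 8.55 in WT and 8.57 in Arp5 KO, which are differences of 0.29 and 0.24 from WT. RPS4X differed by 0.40 and 0.29. All 7 probes of RPSA, which is also the laminin receptor, lay above WT on all 3 other arrays, by 0.25 to 0.42 in Arp8 KO, by 0.13 to 0.36 in Arp8 OE and by 0.01 to 0.15 in Arp5 KO. RPS27A, made as a fusion with ubiquitin, differed by 0.27 and 0.34 in Arp8 KO. RPS14, whose loss contributes to the 5q- syndrome, differed by 0.20 to 0.24 in Arp8 KO with its 3 probes, and in Arp5 KO 1 of the 3 lay 0.31 below WT while the others differed by 0.03 and -0.04.

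In the large subunit RPL7A, which sits at the surface of the 60S particle and hosts small nucleolar RNAs in its introns, went against its family in Arp8 KO. Its 4 probes stood at 8.09, 4.66, 7.09 and 5.95 in WT and at 7.70, 3.77, 6.42 and 5.19 in Arp8 KO, which is 1.30-fold, 1.85-fold, 1.59-fold and 1.70-fold lower. In Arp5 KO they stood at 7.99, 4.33, 6.82 and 5.63, and in Arp8 OE at 8.25, 4.73, 7.23 and 6.07. All 4 probes gave the order Arp8 KO, Arp5 KO, WT, Arp8 OE from low to high, although the excess in Arp8 OE was lost without scaling, where the gene mean was -0.06, and with quantile normalization, where it was -0.01. Of the spots next to these probes, none was bright on 1 array alone. RPL7A carries the longest pyrimidine run among the sequences above.

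RPL35 was the only canonical gene with several probes of which all lay below WT in every culture. The 4 probes differed by -0.21 to -0.43 in Arp5 KO, -0.22 to -0.46 in Arp8 KO and -0.11 to -0.26 in Arp8 OE, and the gene mean was below 0 under all 7 scalings in each. RPL26, which binds p53 mRNA, differed by -0.42 and -0.20 in Arp5 KO, by -0.14 and -0.02 in Arp8 KO, and by 0.18 and 0.23 in Arp8 OE. RPL39, a small protein of the exit tunnel, was also lowest in Arp5 KO, with -0.25 and -0.34 in Arp5 KO and 0.44 and 0.24 in Arp8 OE. Both genes thus stood lowest in Arp5 KO and highest in Arp8 OE, unlike the family.

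RPL5 and RPL11, which form the particle with 5S ribosomal RNA that binds MDM2, stood apart in Arp8 KO and close together on the other arrays. The 2 RPL5 probes differed by 0.39 and 0.25 in Arp8 KO and 0.24 and 0.13 in Arp8 OE. RPL11 stood at 7.57 in WT and 7.56 in Arp5 KO, and at 7.62 in Arp8 KO and 7.75 in Arp8 OE. Its difference was 0.18 in Arp8 OE, where the mean of RPL5 was 0.19, and 0.05 in Arp8 KO, which was within the technical SD. The sign of the latter changed under 3 of the 7 scalings. RPL10, which is added late in 60S assembly, differed by 0.28 to 0.38 in Arp8 KO and 0.30 to 0.36 in Arp8 OE with its 4 bright probes.

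Probes of a gene mostly moved together. Over the 55 genes with 2 or more probes, the median SD between probes of a gene was 0.06 for Arp8 KO. It was 0.05 for Arp8 OE and 0.05 for Arp5 KO. The SD between gene means was 0.28, 0.23 and 0.15 in the same order. That SD was taken over all 85 members that are not Y-linked, single-probe genes such as RPS27L included, so these SDs cover different sets of genes. All probes shared a sign in 51 of the 55 genes in Arp8 KO, 49 in Arp8 OE and 39 in Arp5 KO. Of the 53 canonical genes among them, 43 had all probes above WT in Arp8 KO and 46 did in Arp8 OE. In Arp8 KO 6 had all probes below WT, among them RPL7A, RPL35, RPL22, RPL26 and RPL7. Probes disagreed for RPL24, whose bright probe differed by -0.31 and whose dim probe by 0.52 in Arp8 KO, and the latter raised it to the highest member in Arp8 OE (0.12 and 0.94). They also disagreed for RPL27A in Arp8 OE (0.28 and -0.58) and for RPL13A on the same array (0.30, 0.24 and -0.43). RPL12 (0.21 and 0.58 in Arp8 OE) and RPL36A (0.30, 0.36 and 0.52) ranked high there in part through their dimmer probes. The files used hold no probe sequences, and ribosomal protein genes have many processed pseudogenes, so signal from such copies cannot be told apart from the gene's own.

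**Figure D4:**
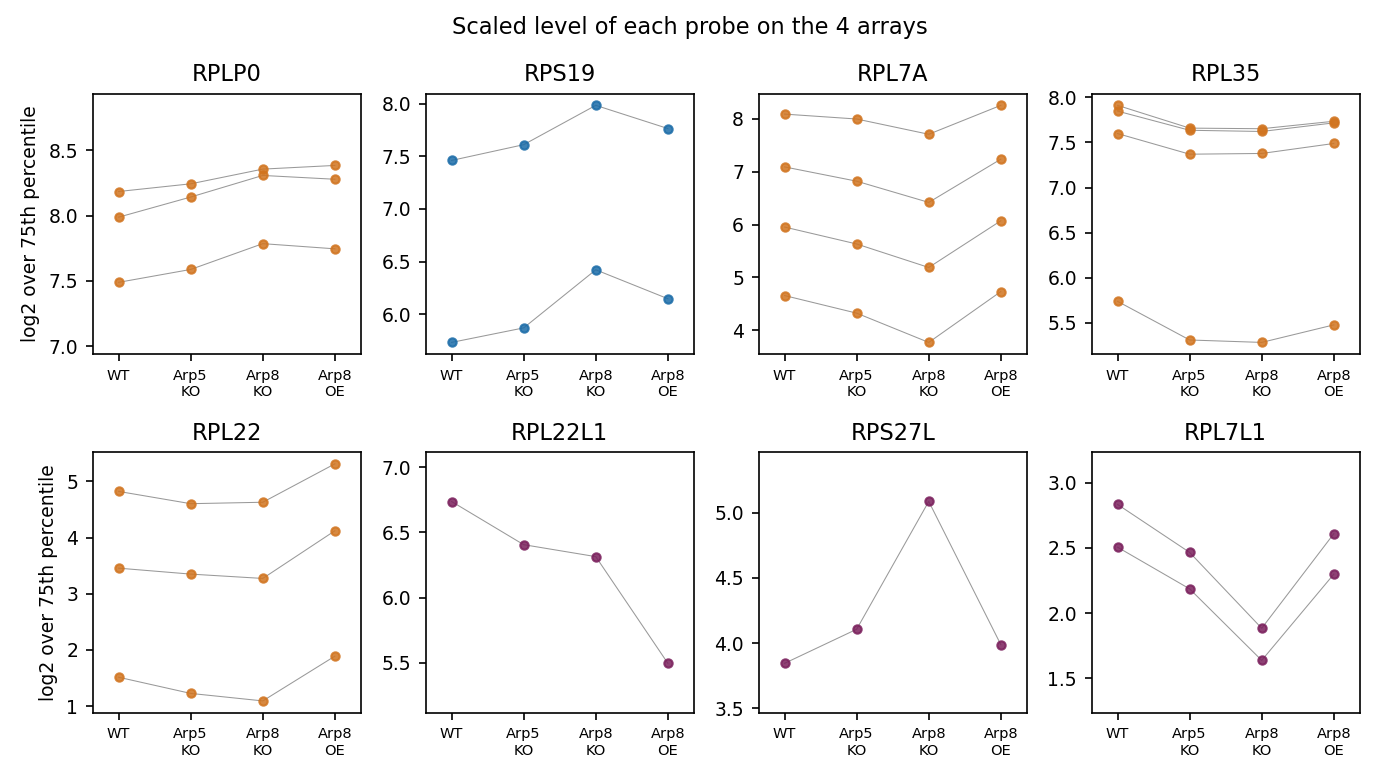
Scaled level (vertical axis, log2 over the 75th percentile of the array, own range in each panel) of every probe of 8 members on the 4 arrays (horizontal axis). Lines join the values of a probe: RPLP0 and RPS19 are higher on the Arp8 arrays, RPL7A and RPL7L1 are lowest in Arp8 KO, RPL35 is highest in WT, RPL22 is highest and RPL22L1 lowest in Arp8 OE, and RPS27L is highest in Arp8 KO.

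The paralogs held the members that differed most. RPS27L, a copy of RPS27 that is a known p53 target, stood at 5.09 in Arp8 KO, against 3.85 in WT, 4.11 in Arp5 KO and 3.99 in Arp8 OE. It was thus 2.36-fold higher in Arp8 KO, and within 1.20-fold of WT elsewhere. It had 1 probe, and 1 of the 6 adjacent spots was bright on the Arp5 KO array alone and none on the Arp8 KO array alone. RPS27 itself differed by 0.28 and 0.24 in Arp8 KO and by 0.25 and 0.22 in Arp8 OE, as the family did. The 2 genes also differ at their start, where RPS27 has the pyrimidine run and RPS27L does not.

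RPL22 and RPL22L1 went opposite ways on the array labelled Arp8 OE. RPL22 encodes a 60S protein that is not essential for translation and has a known role in lymphoid development. Its 3 probes stood at 3.45, 1.51 and 4.82 in WT and at 4.12, 1.89 and 5.31 in Arp8 OE, where they were 1.59-fold, 1.30-fold and 1.40-fold higher. In Arp5 KO they stood at 3.35, 1.23 and 4.60 and in Arp8 KO at 3.27, 1.09 and 4.63, below WT with every probe. RPL22L1, with 1 probe, stood at 5.50 in Arp8 OE, against 6.74 in WT, 6.41 in Arp5 KO and 6.31 in Arp8 KO. Its level was thus 2.36-fold below WT in Arp8 OE. None of its 6 adjacent spots was bright on 1 array alone. Both genes kept these signs under all 7 scalings, and against Arp8 OE as the reference RPL22L1 was 0.91 higher in Arp5 KO and 0.82 higher in Arp8 KO.

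RPL7L1, a nucleolar relative of RPL7, was lower than WT on all 3 arrays. Its 2 probes stood at 2.83 and 2.51 in WT, and at 1.88 and 1.64 in Arp8 KO. They stood at 2.47 and 2.19 in Arp5 KO and at 2.61 and 2.30 in Arp8 OE. The drop was 1.93-fold and 1.83-fold in Arp8 KO. RPL7 differed by -0.09 and -0.01 there. RPL39L, a paralog known from germ cells, stood at 0.46 in WT and 0.57 in Arp5 KO, but at 0.01 in Arp8 KO and -0.15 in Arp8 OE. Its level was thus 1.36-fold and 1.52-fold lower in the Arp8 cultures, while RPL39 was higher in Arp8 OE. The 3 RPL26L1 probes differed by -0.23 to -0.27 in Arp5 KO and -0.23 to -0.32 in Arp8 OE, against 0.03 to 0.15 in Arp8 KO.

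Some paralogs followed their partner. RPL10L, an intronless copy known from the testis, differed by 0.42 in Arp8 KO, 0.39 in Arp8 OE and 0.24 in Arp5 KO, close to the bright RPL10 probes on every array. Its values are uncertain because the copies are nearly identical. RPL36AL differed by 0.23 on the Arp8 KO array, 0.20 on the Arp8 OE array and -0.08 on the Arp5 KO array, where the brightest RPL36A probe differed by 0.30, 0.30 and 0.00 in that order. RPL3L was dim on all arrays, at -3.50 in WT and -3.34 on both Arp8 arrays, and RPL3 differed by -0.10 to 0.12 in Arp8 KO and 0.14 to 0.29 in Arp8 OE.

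Members with and without the pyrimidine start had similar medians. The median gene difference was 0.26 in Arp8 KO over 47 genes with the start and 0.24 over 21 genes without it. In Arp8 OE the medians were 0.25 and 0.21, and in Arp5 KO 0.04 and 0.04. In Arp8 KO 39 of the 47 genes with the start lay above WT and 20 of the 21 without it, and in Arp8 OE 44 and 18 did. RPS4X and RPS7 are among the genes without the run in the windows used, and RPL7A and RPL35 among those with it.

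Gene groups around the ribosome differed from the members and from each other, and all were described by counts and medians alone. The mitochondrial ribosomal proteins, which build the separate ribosome of the mitochondrion, were measured with 107 probes of 77 genes. Their median was -0.19 for Arp8 OE, -0.05 for Arp8 KO and -0.02 for Arp5 KO. On the array labelled Arp8 OE only 12.1% of them lay above WT, where 91.3% of cytosolic members did. None was past 0.32 higher there, against 18.1 percent of all probes, and 15 (14.0%) were lower, against 16.6 percent. The lowest was MRPL50, at -1.17 and -1.37 in Arp8 KO and Arp8 OE. The medians of both ribosomes had opposite signs in the Arp8 cultures under all 7 scalings.

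The ribosome assembly list, with nucleolar factors such as FBL and NOP56 and RNA polymerase I subunits, split the Arp8 cultures. Over 55 probes of 37 genes its median was 0.26 in Arp8 KO and -0.18 in Arp8 OE, signs that held under all 7 scalings, and 0.12 in Arp5 KO. In Arp8 KO 19 probes (34.5%) were past 0.32 higher, against 22.3 percent of all probes, and 2 (3.64%) lower, against 22.1 percent, with POLR1B at 0.76 and UBTF at 0.67. In Arp8 OE 1 (1.82%) was higher, against 18.1 percent, and 14 (25.5%) lower, against 16.6 percent, with UTP20 at -0.76 and TSR1 at -0.59. The cytosolic ribosomal proteins stood above WT by about the same amount in both cultures, so their median had the sign of the assembly list in Arp8 KO and the opposite sign in Arp8 OE.

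Other transcripts of the translation machinery had medians of 0.11 for Arp8 KO, 0.07 for Arp8 OE and 0.07 for Arp5 KO over 88 probes of 36 genes. Without scaling the first 2 were -0.06 and -0.11, and scaled over the low-sensitivity scan the second was -0.06. In Arp8 KO 13 probes (14.8%) were past 0.32 higher and 3 (3.41%) lower, and in Arp8 OE 4 (4.55%) and 6 (6.82%), all below the shares over all probes given above. EIF2S2 and EIF5, which encode initiation factors, were the lowest in Arp8 KO, at -0.59 and -0.55, and a probe of the elongation factor EEF1A1 was the highest, at 0.53. In Arp8 OE the initiation factor EIF2S1 (-0.63) and a probe of the nucleolar protein NPM1 (-0.53) were the lowest, and EIF2S2 was the highest, at 0.58. FAU and RACK1, which encode further ribosomal proteins under other names, lay above WT on all 3 arrays. The 3 FAU probes differed by 0.18 to 0.23 in Arp8 KO and 0.12 to 0.16 in Arp8 OE, and RACK1 by 0.19 and 0.29. In Arp5 KO these 4 probes lay between 0.03 and 0.06.

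**Figure D5:**
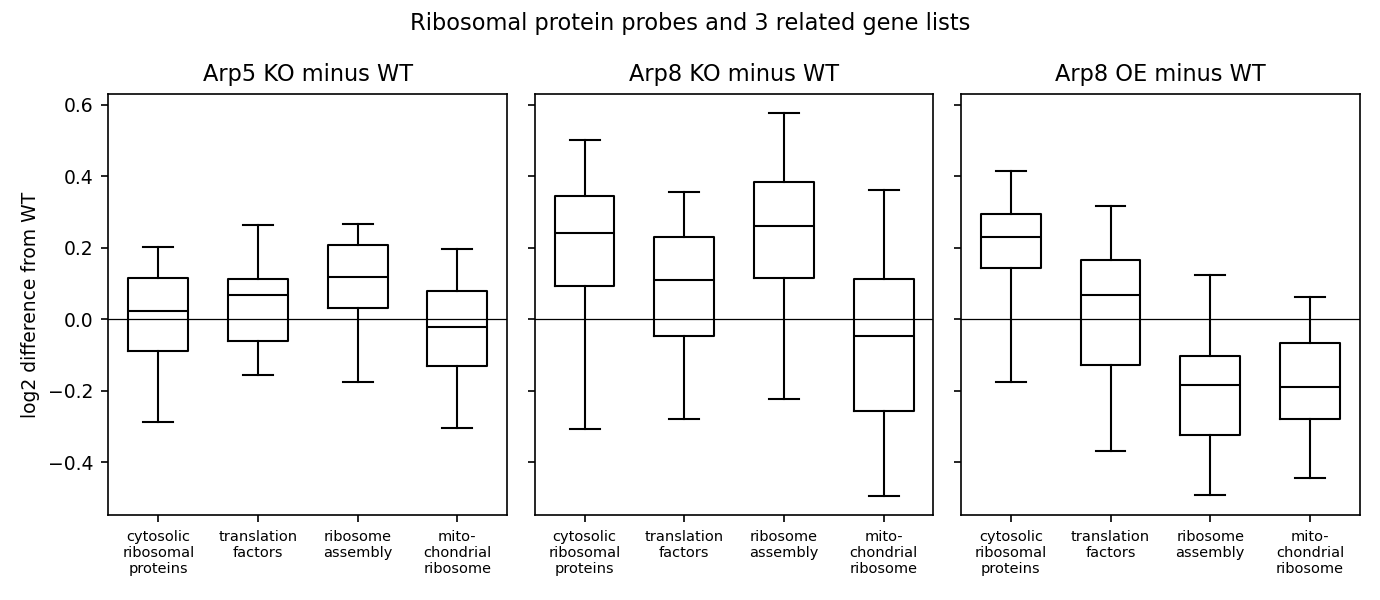
Log2 difference from WT (vertical axis) for cytosolic ribosomal proteins and 3 related gene lists (horizontal axis) in the 3 cultures with 1 array each. Boxes span the middle 50% of probes with the median as a line, and whiskers run from the 5th to the 95th percentile. In Arp8 OE the cytosolic ribosomal proteins have a median of 0.23, ribosome assembly -0.18 and mitochondrial ribosomal proteins -0.19.

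Regulators of ribosomal protein production moved singly. Over 22 genes the median was 0.02 for Arp8 KO, -0.11 for Arp8 OE and 0.00 for Arp5 KO. Of 38 probes in Arp8 KO, 6 (15.8%) were past 0.32 higher and 7 (18.4%) lower, below the 22.3 and 22.1 percent of all probes. Of 37 probes in Arp8 OE, 3 (8.11%) were higher, against 18.1 percent, and 10 (27.0%) lower, against 16.6 percent. Of 38 probes in Arp5 KO, 4 (10.5%) were higher, against 10.9 percent, and 1 (2.63%) lower, against 11.7 percent. MYC, which drives ribosome production, was 0.86 higher in Arp5 KO and 0.83 in Arp8 KO with its bright probe, and 0.28 in Arp8 OE. SESN1, a p53-responsive inhibitor of mTOR signalling, differed by 1.86 and 1.84 in Arp8 KO. DDIT4, another inhibitor of that pathway, differed by 1.83 in Arp8 OE, and SESN2 by 0.79. LARP4 differed by -0.83 in Arp8 KO and -0.73 in Arp8 OE.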

How the data were processed

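Total RNA of 4 Nalm-6 cultures was hybridised to 1-colour Agilent arrays, 1 per genotype. Per the file headers, the authors made the deposited intensity values with version 10.10.1.1 of Agilent Feature Extraction. The processed signal was background-subtracted and detrended within an array, was not normalized between arrays, and joined 2 scans of different sensitivity. The authors' deposited series matrix held the intensity of the same spots times 1 factor per array.

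From these, log2 processed signal minus the log2 75th percentile of the array was computed (Python 3.11.15, numpy 2.4.6, pandas 2.3.3). Outlier spots were dropped and replicate spots averaged. A probe was well above background if 50% of its spots were, and a dimmer value was raised to the lowest value well above background. Accessions were matched to symbols through the RefSeq table of GRCh38.p14, for 27210 probes. Start windows came from RefSeq on the same build. The files name hg19, so no array coordinates are given. Precision is limited by the number of arrays. Scripts were tested on simulated data.

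The named genes followed a rule: members past 2-fold, the 5 highest and 5 lowest gene means per culture, 12 members of known roles including RPLP0, and 8 paralog pairs, and from each of 4 lists (mitochondrial ribosomal proteins, translation machinery, ribosome assembly, regulators) the 2 highest and 2 lowest probes past 0.32 on the log2 scale. RPS26, RPL27A, RPL13A, RPS7, FAU and RACK1 and genes named only as present in a list were named outside it after their values were seen. Some genes that the rule selects are not reported here. Members, lists and tests were chosen with earlier results of these data known. The alternatives were 12 planned settings (limma 3.58.1 in R 4.3.3 for quantile, cyclic loess and normexp with an offset of 50, the last on the median spot signal) and 3 chosen after seeing the data: no scaling, scaling over other spots of the low-sensitivity scan, and leaving out probes with an adjacent bright spot.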

Additional observations from a re-analysis of the deposited data

How the results depend on the processing

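No paired analysis was possible because each group had 1 array. With 1 array per genotype and conflicting heme labels, the spread between cultures is unknown, and the threshold of a count stands in for a test. Of 202 recomputed medians and counts over the members, 151 moved little and 51 moved. Of 1524 recomputed gene values 1313 moved little, 204 moved and 7 were counted as reversed. The 7 reversed values do not hold every change of sign. Over the 7 scalings the sign of the gene mean depended on the scaling for 18 of 85 members in Arp8 KO. The number was 20 in Arp8 OE and 11 in Arp5 KO. The series matrix, normexp and the filter for probes well above background on all 4 arrays moved none of the recomputed values. Scaled to the median, 4 probes were past 0.32 lower in Arp5 KO and 22 higher in Arp8 OE. With quantile normalization the medians were 0.13 for Arp8 KO and 0.089 for Arp8 OE, 31 probes were higher and 16 lower in Arp8 KO, 19 were higher in Arp8 OE, and 88 had both Arp8 arrays above the others; with cyclic loess 19 were higher in Arp8 OE. With no filter and no floor, 2 probes were past 2-fold in each Arp8 culture and 1 in Arp5 KO, and RPL10 changed sign to -0.15 for Arp8 KO and -0.0098 for Arp8 OE, because its dim probe entered the mean. Counting genes in place of probes gave 24 higher and 4 lower for Arp8 KO, 15 and 2 for Arp8 OE, 0 and 2 for Arp5 KO, with an Arp8 array highest for 83 genes and both above the others for 67. Against Arp8 OE, Arp5 KO had a median of -0.19 with 4 higher and 36 lower, and Arp8 KO a median of 0.021 with 6 higher, 14 lower and 2 past 2-fold. RPL22L1 then changed sign to 0.91 (Arp5 KO) and 0.82 (Arp8 KO), and for Arp8 KO RPL12 (-0.053), RPL36A (-0.053) and RPL39L (0.16) did. Scaled over other probes well above background, 1 was higher in Arp5 KO. Without genes that have a paralog, 5 were lower for Arp8 KO, 2 for Arp8 OE and 3 for Arp5 KO, and 0 were past 2-fold in either Arp8 culture. At 1.5-fold the counts were 4 higher and 5 lower for Arp8 KO, 2 and 2 for Arp8 OE, and 0 and 0 for Arp5 KO. Of the settings chosen after seeing the data, no scaling gave medians of 0.075 in Arp8 KO, with 12 higher, 18 lower and 4 past 2-fold, and 0.043 in Arp8 OE, with 5 and 11, and 49 probes had both Arp8 arrays above the others. Scaling over the low-sensitivity scan gave 1 higher in Arp5 KO, and a median of 0.10 with 8 higher and 10 lower in Arp8 OE. Without probes next to a bright spot 0 were past 2-fold in Arp8 KO, since RPS27L has such a neighbour on the Arp5 KO array. The counts under these alternative settings are given without the share over all probes. Where no construction is named, the cause was not tested.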
